A study of Bos taurus with 48 samples.

Results

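The IFIT and OAS families were measured by 6 probes, 1 each for IFIT1, IFIT2, IFIT3, IFIT5, OAS1 and OAS2, of 21475 probes and 15566 gene symbols on a bovine oligonucleotide array. The probes were found by gene symbol in the annotation of the array. A symbol field named 5 of them. The IFIT1 probe was found by the text of its description, which calls its target similar to interferon-induced protein with tetratricopeptide repeats 1, and the accession of the OAS1 probe is that of OAS1X in the RefSeq table for ARS-UCD2.0.

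The samples were caruncular and intercaruncular endometrium, collected on day 17 from lactating Holstein Friesian cows of mixed New Zealand and North American ancestry. The caruncles are the raised sites at which the ruminant placenta attaches, and the intercaruncular tissue lies between them. Of the 22 cows, 12 were pregnant after an embryo had been transferred on day 7, and 10 were cyclic and received none. The labels put 7 pregnant cows under a large embryo, longer than 20 cm and heavier than 75 mg, and 5 under a small one, shorter than 20 cm and lighter than 40 mg. They also call 6 pregnant cows fertile and 6 sub-fertile, and these classes cross the size classes, with 3 fertile and 4 sub-fertile cows carrying a large embryo and 3 fertile and 2 sub-fertile cows a small one. The Cy5 label went to the sample and the Cy3 label to a reference pooled from the 44 samples, with no dye swap, so every level below is a log2 ratio of 1 sample to that pool and can be compared between cows but not between probes. The cow was the replicate, and all cows were separate animals, named here by the state and number in their labels, as in Pregnant_9790 or Non-Pregnant_9786.

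Both families belong to the genes that type I interferons switch on. In ruminants the elongating conceptus secretes interferon tau, the signal of maternal recognition of pregnancy, and the endometrium answers it through the type I interferon receptor and a transcription factor complex that includes IRF9. IFIT proteins are built from tetratricopeptide repeats. IFIT1 binds RNA whose cap lacks the methyl groups of host messages, IFIT2 and IFIT3 assemble with it, IFIT5 binds RNA with a 5' triphosphate, and several of them hinder translation through the initiation factor eIF3. OAS enzymes are activated by double-stranded RNA and join ATP into 2'-5' linked oligoadenylates (2-5A), a second messenger of the antiviral response. OAS1 is the smaller enzyme and OAS2 carries a duplicated synthetase unit. In the RefSeq table, IFIT2, IFIT3 and IFIT5 lie in a row on 1 chromosome with 2 other entries among them, and OAS2, OAS1Y, OAS1X and OAS1Z are direct neighbours.

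Since the members are relatives, the stretches that their probes had in common are shown first, as the study's table of probes gives them, 5' to 3'. The probes of IFIT1 and IFIT3 shared a run of 9 bases, set in capitals, which starts at base 24 of the first and base 18 of the second.
IFIT1: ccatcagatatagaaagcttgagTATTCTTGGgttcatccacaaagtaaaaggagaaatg
IFIT3: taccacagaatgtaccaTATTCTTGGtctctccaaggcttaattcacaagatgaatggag
The longest run shared by any pair was 10 bases, again in capitals, between the OAS2 probe and the IFIT2 probe, of which the first 30 bases are given.
OAS2: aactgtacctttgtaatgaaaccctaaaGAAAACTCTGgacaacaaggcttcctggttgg
IFIT2: agcagagGAAAACTCTGagaggtgtttgga
Over the 15 pairs of member probes, the best alignment without gaps matched 18 to 27 of 60 bases, and the longest shared run was between 4 and 10 bases. The OAS1 probe matched that of its neighbour OAS1Z in 20 bases, with a longest run of 6. Hybridisation of a transcript to the probe of a relative was not tested.

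The 48 arrays, 4 samples having been hybridised again, lay on 12 slides in 3 scan batches, and 68.8 to 84% of their spots were well above background. Tissue and scan batch cannot be told apart in 20 of the 22 cows, since their tissues were scanned in different batches. The tissues of cows Pregnant_9790 and Non-Pregnant_9786 shared a slide, and over all probes the difference between tissues in these cows was the least like that of the other cows (r = 0.40 and 0.33, against 0.44 to 0.90). In the whole tissue, more cells of a type and more RNA per cell cannot be told apart. None of 12 probes for conceptus genes passed the filter on signal, that of IFNT2 was above background on 0 of 48 arrays, and none was above background on more than 5. The summed signal of the 12 ranged from 127 to 369 units in cyclic and from 121 to 383 in pregnant caruncular samples, and from 115 to 428 and from 61.2 to 283 in the respective intercaruncular samples. Of 12 leukocyte marker probes tested, 3 rose with pregnancy in caruncular and 2 in intercaruncular tissue (AIF1 by 1.19 and 0.98 and CSF1R by 0.73 and 0.61 in the respective tissues, and NKG7 by 0.75 in caruncular tissue). The mean level of the 12 ranged from -0.64 to 0.10 in cyclic and from -0.17 to 0.65 in pregnant caruncular samples, and from -0.41 to 0.08 and from -0.43 to 0.57 in the respective intercaruncular samples. Of 4 smooth muscle probes, 3 fell in both tissues, where 4.21% of all probes fell in caruncular and 3.25% in intercaruncular tissue. Of the 4 endothelial probes 1 fell in both, PECAM1 by a difference of -1.29 and -1.52, while of 6 epithelial probes 1 rose and 2 fell in caruncular tissue and 1 rose in intercaruncular tissue, and of 7 stromal probes 2 rose and 1 fell and 1 rose and 2 fell in the respective tissues. The part of these shifts in the results below was not tested.

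In cyclic cows, 4 of the 6 probes gave a sample signal well above background on every array that measured them. These were IFIT1, IFIT3, IFIT5 and OAS2, with the spots of 1 caruncular array left out for IFIT5 as outliers. The other two were at the edge of detection. IFIT2 was above background on 5 of 13 caruncular and 4 of 10 intercaruncular arrays of cyclic cows, and on 13 of 13 and 12 of 12 arrays of pregnant cows. OAS1 was above background on 2 of 13 and 2 of 10 arrays of cyclic cows, and on 12 of 13 and 6 of 12 of pregnant cows. The median signal of the OAS1 probe was 13 units in cyclic and 110 in pregnant caruncular samples, and 11.8 and 47.4 in the respective intercaruncular samples, so that it did not reach 80 units in enough samples to pass the filter and was not tested with the other 5. For IFIT2 the median signal was 47.7 and 943 units in caruncular and 39.1 and 410 in intercaruncular samples of cyclic and pregnant cows, so the size of its change rests on a cyclic level close to the background.

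Pregnancy gave the largest differences. IFIT1, IFIT3, IFIT5 and OAS2, which reached 80 units in all 20 cyclic samples as well as in all 24 pregnant ones, were up-regulated in pregnant cows in both tissues, 4 of 4 at a change of at least 1.5-fold and an adjusted p below 0.05, where 5.77% of all 14690 probes tested rose in caruncular and 3.99% in intercaruncular endometrium. Their median change was 4.20 on the log2 scale in caruncular and 3.15 in intercaruncular tissue, and that of all probes was -0.04 and -0.01. IFIT2 was called as well, but it passed the filter through the pregnant cows, with 80 units in 24 of 24 pregnant and 3 of 20 cyclic samples, so it had to differ and its call adds nothing to that count. For each of IFIT1, IFIT3, IFIT5 and OAS2, every pregnant cow was above every cyclic cow in either tissue. The same held for IFIT2, with the limit just given.

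IFIT1 had the largest rise of the family in caruncular tissue. Its log2 ratio ran from -4.73 through a median of -3.85 to -3.64 in the 10 cyclic cows and from -0.35 through 1.11 to 2.70 in the 12 pregnant cows, a gap of more than 3 units with no overlap. The difference was 5.14 (SE 0.29, 35.3-fold, adjusted p = 1.61e-11), the rise ranked 3 among all probes tested. In intercaruncular tissue the values were -4.71, -3.79 and -3.56 in cyclic and -1.88, -0.71 and 1.71 in pregnant cows, and the difference was 3.39 (SE 0.30, 10.5-fold, adjusted p = 2.66e-08). The cyclic cows thus lay in much the same range in both tissues, while the pregnant cows spread over more than 3 units.

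IFIT2 and IFIT3, the partners of IFIT1 in the RNA-binding complex, followed. IFIT3 in caruncular tissue lay between -4.19 and -3.82 (median -4.06) in cyclic cows and between -1.41 and 2.26 (median 0.85) in pregnant cows, a difference of 4.57 (SE 0.34, 23.8-fold, adjusted p = 1.41e-09). In intercaruncular tissue it lay between -4.29 and -3.86 (median -4.16) and between -2.36 and 0.83 (median -0.14), a difference of 3.56 (SE 0.35, 11.8-fold, adjusted p = 1.6e-07). Cyclic cows were close to each other for this gene, with an SD of 0.11 and 0.16 in the respective tissues, and pregnant cows were not, with 1.14 and 1.17. IFIT2 ran from -4.44 through -3.84 to -2.75 in cyclic and from -1.46 through 0.84 to 2.86 in pregnant caruncular samples, a difference of 4.32 (SE 0.42, 19.9-fold, adjusted p = 8.79e-08). In intercaruncular tissue it ran from -4.46 through -3.47 to -2.75 and from -2.38 through -0.53 to 0.19, a difference of 2.64 (SE 0.34, 6.24-fold, adjusted p = 9.38e-06). Its lowest pregnant cow came within 0.5 units of its highest cyclic cow in intercaruncular tissue, the narrowest gap of the 5 members tested.

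IFIT5 changed less and varied less. It lay between -2.40 and -1.94 (median -2.22) in cyclic and between -0.40 and 1.07 (median 0.79) in pregnant caruncular samples, a difference of 2.82 (SE 0.16, 7.06-fold, adjusted p = 1.61e-11). In intercaruncular samples it lay between -2.73 and -2.41 (median -2.64) and between -0.97 and 0.61 (median -0.02), a difference of 2.52 (SE 0.15, 5.73-fold, adjusted p = 6.34e-11). The SD over pregnant cows was 0.49 in both tissues, the smallest among the 6 probes.

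Of the synthetases, OAS2 lay between -3.40 and -2.77 (median -3.15) in cyclic and between -0.78 and 1.44 (median 1.01) in pregnant caruncular samples, a difference of 3.82 (SE 0.25, 14.1-fold, adjusted p = 1.51e-10). In intercaruncular samples the ranges were -3.34 to -2.41 (median -2.64) and -0.92 to 1.11 (median 0.47), a difference of 2.90 (SE 0.24, 7.48-fold, adjusted p = 9.26e-09). Both OAS2 changes lay within the range of those of the IFIT genes. OAS1 averaged -2.75 ± 0.51 (SD, n = 10) in cyclic and 0.29 ± 0.84 (SD, n = 12) in pregnant caruncular samples, where all 12 pregnant cows were above every cyclic cow. In intercaruncular samples it averaged -2.49 ± 0.76 and -0.77 ± 1.27, and 6 of 12 pregnant cows were above every cyclic cow, so that the groups overlapped. With no filter on signal, when 4.7% and 3.17% of all probes rose in the respective tissues, the OAS1 differences were 3.04 (SE 0.30, adjusted p = 2.85e-07) and 1.72 (SE 0.44, adjusted p = 0.0111). With normexp background correction (offset 50) and loess in place of the deposited processing they were 1.54 and 0.81, and the cause was not tested.

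**Figure D1:**
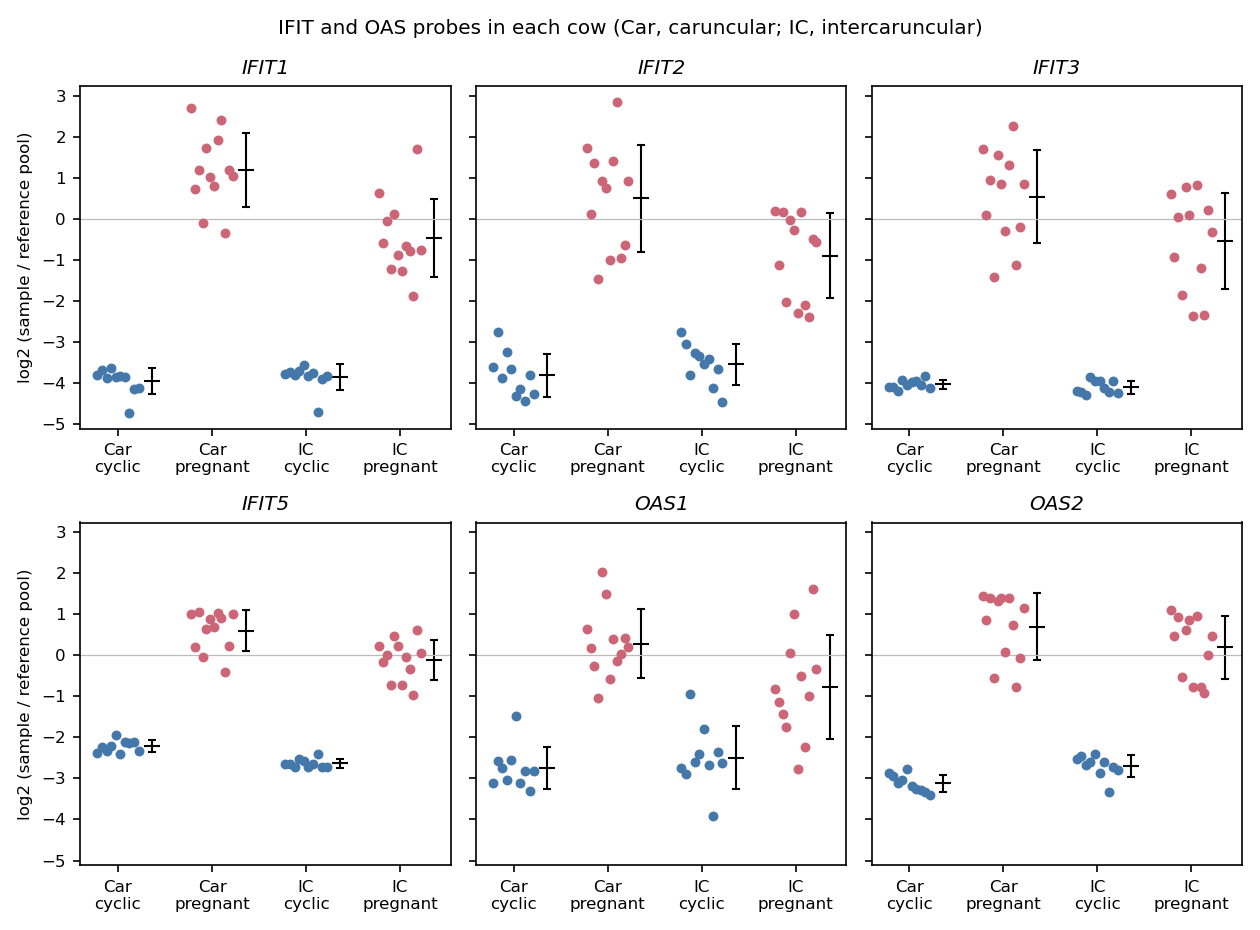
Log2 ratio of sample to reference pool of the 6 probes, 1 point per cow, in caruncular (Car) and intercaruncular (IC) endometrium of cyclic (blue) and pregnant (red) cows; black bars give the mean and SD. Pregnant and cyclic cows did not overlap for IFIT1, IFIT2, IFIT3, IFIT5 and OAS2 in either tissue, and for OAS1 they overlapped in intercaruncular tissue.

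The slide on which an array lay was mostly tied to pregnancy. The 1 slide with pregnant and cyclic cows among the intercaruncular arrays held 3 pregnant cows and 1 cyclic cow, and their differences were 2.98 for IFIT1, 2.29 for IFIT2, 2.90 for IFIT3, 2.45 for IFIT5, 0.72 for OAS1 and 3.01 for OAS2. On a caruncular slide with 3 pregnant cows and 1 cyclic cow the differences were 4.38, 4.17, 3.81, 2.79, 1.26 and 3.67 in the same order, and on another with 2 and 1 they were 5.92, 4.96, 4.79, 2.96, 4.00 and 4.39. For each member on each of these slides the lowest pregnant value was above the cyclic one, for OAS1 on the intercaruncular slide only just (-1.75 against -1.79). The comparisons are not independent. The intercaruncular slide and the first caruncular one held the same cows, with Non-Pregnant_3972 as the cyclic cow. On the other caruncular slide the cyclic cow was Non-Pregnant_9960, by its repeat array. With slide as a fixed block, which leaves few arrays to carry the comparison and at which 0.361% and 0.634% of all probes rose, 3 of 5 members were called in each tissue. IFIT2 (adjusted p = 0.17 and 0.235) and IFIT3 (0.0899 and 0.0525) were not.

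Of the genes around the members, most genes of RNA sensing rose and the interferon receptor genes were not called. Of 6 tested probes for genes of RNA sensing, 5 rose in both tissues. The median change of the 6 was 2.63 in caruncular and 1.96 in intercaruncular tissue. DDX58, the receptor RIG-I, rose by 4.08 and 3.14, IFIH1, the receptor MDA5, by 3.27 and 2.40, and EIF2AK2, the RNA-activated kinase PKR, by 3.27 and 2.63. IRF9 rose by 2.49 and 2.00. The 5 probes for the receptor subunits IFNAR1 and IFNAR2 and the receptor kinases JAK1 and TYK2 had changes between -0.38 and 0.09 in caruncular tissue, and none reached 1.5-fold in either tissue. Of 12 probes for enzymes of the cap and subunits of eIF3, 1 rose, CMTR1, which methylates the ribose of the first base behind the cap, by 1.06 (SE 0.10, adjusted p = 7.43e-08) and 0.95 (SE 0.10, adjusted p = 2.69e-07), and the other 11 did not reach 1.5-fold.

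Other genes of the 2-5A pathway that are described here changed less than the members or were dim. PDE12, a phosphodiesterase that degrades 2-5A, rose by 0.96 (SE 0.23, adjusted p = 0.00413) in caruncular tissue, and its difference of 0.51 (adjusted p = 0.0264) in intercaruncular tissue was below 1.5-fold. ABCE1, an ATP-binding cassette protein, had differences of 0.18 and 0.12 by its brighter probe and was not called. OASL, a relative with no synthetase activity in man, was above background on 8 of 13 and 12 of 13 caruncular arrays and on 6 of 10 and 10 of 12 intercaruncular arrays of cyclic and pregnant cows, and did not pass the filter. OAS1Z was above background on 0 of 13 and 0 of 10 arrays of cyclic cows and on 10 of 13 and 3 of 12 of pregnant cows. Against the lowest signal that counted as above background, its pregnant mean was at least 2.47-fold higher in caruncular tissue. In intercaruncular tissue, where 9 of 12 pregnant arrays were not well above background either, the median log2 ratio was -1.99 in pregnant and -1.89 in cyclic cows and no fold is given. OAS3, OAS1X and OAS1Y were not matched to a further probe.

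**Figure D2:**
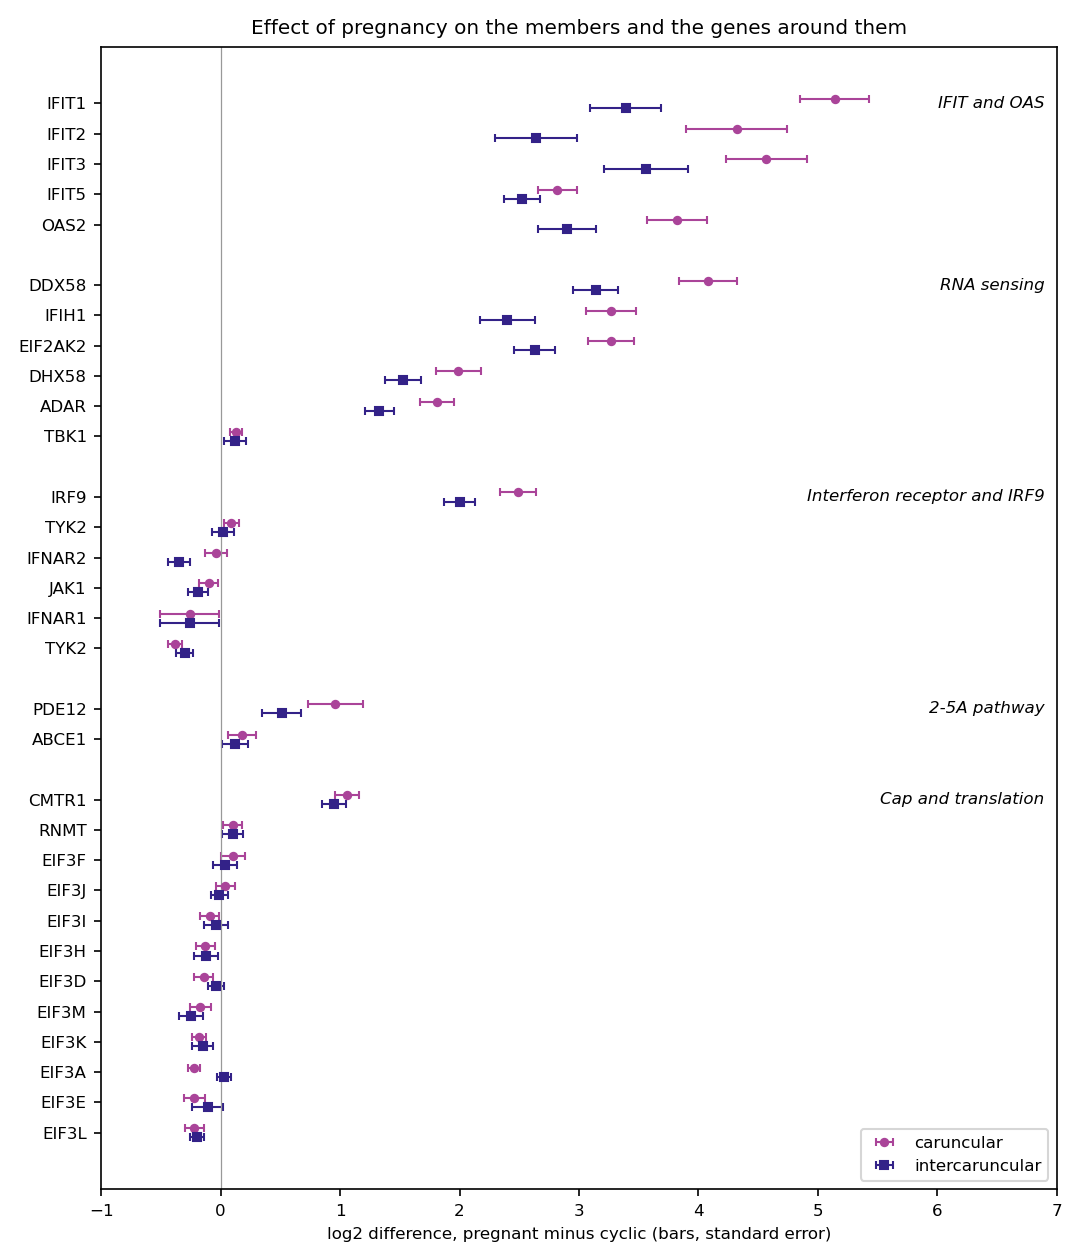
Log2 difference between pregnant and cyclic cows, with its SE, for the 5 members tested and for tested probes of genes around them, in caruncular (circles) and intercaruncular (squares) endometrium; a gene named more than once has more than 1 probe. The members and the genes of RNA sensing other than TBK1, a kinase, lay between 1.33 and 5.14, while receptor subunits, their kinases and eIF3 subunits lay near 0.

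Among the pregnant cows, the means of all 6 members were higher with a large than with a small embryo in both tissues, and the differences of the 5 tested were larger in intercaruncular tissue. In intercaruncular tissue all 5 tested members had a positive difference and 4 had an unadjusted p under 0.05, against 21.6% of all probes, and 1 of 5 was called, against 3.69% of all probes. The members were read in the same cows and moved together, with r between 0.47 and 0.96 in this tissue. Counts of members, here and elsewhere, are therefore not counts of separate observations. The called member was OAS2. Its values in the 5 cows with a small embryo were -0.92, -0.78, -0.78, -0.53 and 0.61, and in the 7 cows with a large embryo they ran from 0.01 through a median of 0.87 to 1.11. The difference was 1.17 (SE 0.27, 2.25-fold, adjusted p = 0.0382), and 4 of 7 cows with a large embryo were above every cow with a small one. The groups overlapped through 1 cow with a small embryo, Pregnant_3956, the highest of the 5 for every member.

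For IFIT2 the small-embryo values were -2.38, -2.30, -2.10, -2.03 and -0.02, against -1.12 to 0.19 (median -0.26) with a large embryo, a difference of 1.49 (SE 0.39, adjusted p = 0.0526). Only cow Pregnant_3956 of the small-embryo cows reached the range of the others. The differences were 1.47 for IFIT3 (SE 0.50, adjusted p = 0.112), 0.92 for IFIT1 (SE 0.46, adjusted p = 0.268) and 0.59 for IFIT5 (SE 0.22, adjusted p = 0.149), and OAS1, not tested, averaged -0.22 ± 1.13 (SD, n = 7) with a large and -1.53 ± 1.11 (SD, n = 5) with a small embryo. For each of the 6 members, all 7 cows with a large embryo were above the mean of those with a small embryo, and the lowest 3 intercaruncular values of all 12 cows belonged to cows with a small embryo.

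The call for OAS2 was lost on leaving out any 1 of cows Pregnant_1943, Pregnant_3803, Pregnant_3805, Pregnant_3807, Pregnant_3957, Pregnant_926, Pregnant_932, Pregnant_977 or Pregnant_9246, with differences between 1.06 and 1.21, and with no filter on signal. Without cow Pregnant_3956, when 4.38% of all probes were called, 4 members were called (IFIT2 by 1.93, IFIT3 by 2.01, IFIT5 by 0.82 and OAS2), and without cow Pregnant_9790, when 12.8% of all probes were, 2 were. On leaving out 1 cow the share of all probes called moved between 0.231% and 12.8%. Cow Pregnant_3956 was the highest of the small-embryo cows for every member, so the members' differences had to rise without it.

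The slide was partly tied to embryo size and to the fertility label. Of the pregnant cows, 1 set of 4, all fertile, with 3 large embryos and 1 small one, shared a slide in each tissue, as did a set of 4 with 1 large and 3 small embryos, 2 of the cows being fertile, and a set of 3 sub-fertile cows with 2 large embryos and 1 small one, each sample taken by its first array. Within the 3 intercaruncular slides the difference between large and small embryo was 0.37, 1.75 and 1.00 for OAS2 in the same order of sets, with every large-embryo cow above every small-embryo cow of its slide. For IFIT2 it was 0.05, 2.44 and 1.19. IFIT1, IFIT3 and IFIT5 differed by -0.43, -0.26 and -0.34 in the first set, where the small embryo was that of cow Pregnant_3956, and by 0.54 to 2.02 in the other two. In caruncular tissue OAS2 differed by 0.09, 1.37 and 1.55 and IFIT5 by 0.34, 0.67 and 0.65, again without overlap on a slide. With slide as a fixed block, an alternative added after seeing the data, 7.39% of all probes were called in intercaruncular tissue and the members' differences were 1.04 for OAS2 (adjusted p = 0.0229), 1.23 for IFIT2 (0.064), 0.98 for IFIT3 (0.163), 0.45 for IFIT1 (0.494) and 0.32 for IFIT5 (0.348).

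In caruncular tissue 0 of 5 members were called by limma at an adjusted p below 0.05, as were 0% of all probes, and 1 of 5 had an unadjusted p under 0.05, against 6.9% of all probes. The differences between large and small embryo were 0.50 for IFIT1, 0.73 for IFIT2, 0.60 for IFIT3, 0.42 for IFIT5 and 0.92 for OAS2, with adjusted p from 0.693 to 0.894. Cow Pregnant_932, with a small embryo, had the highest caruncular value of all 12 cows for IFIT2 (2.86) and IFIT3 (2.26), although its intercaruncular IFIT2 value was -2.10. The difference between the tissues in the response to size was not tested.

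**Figure D3:**
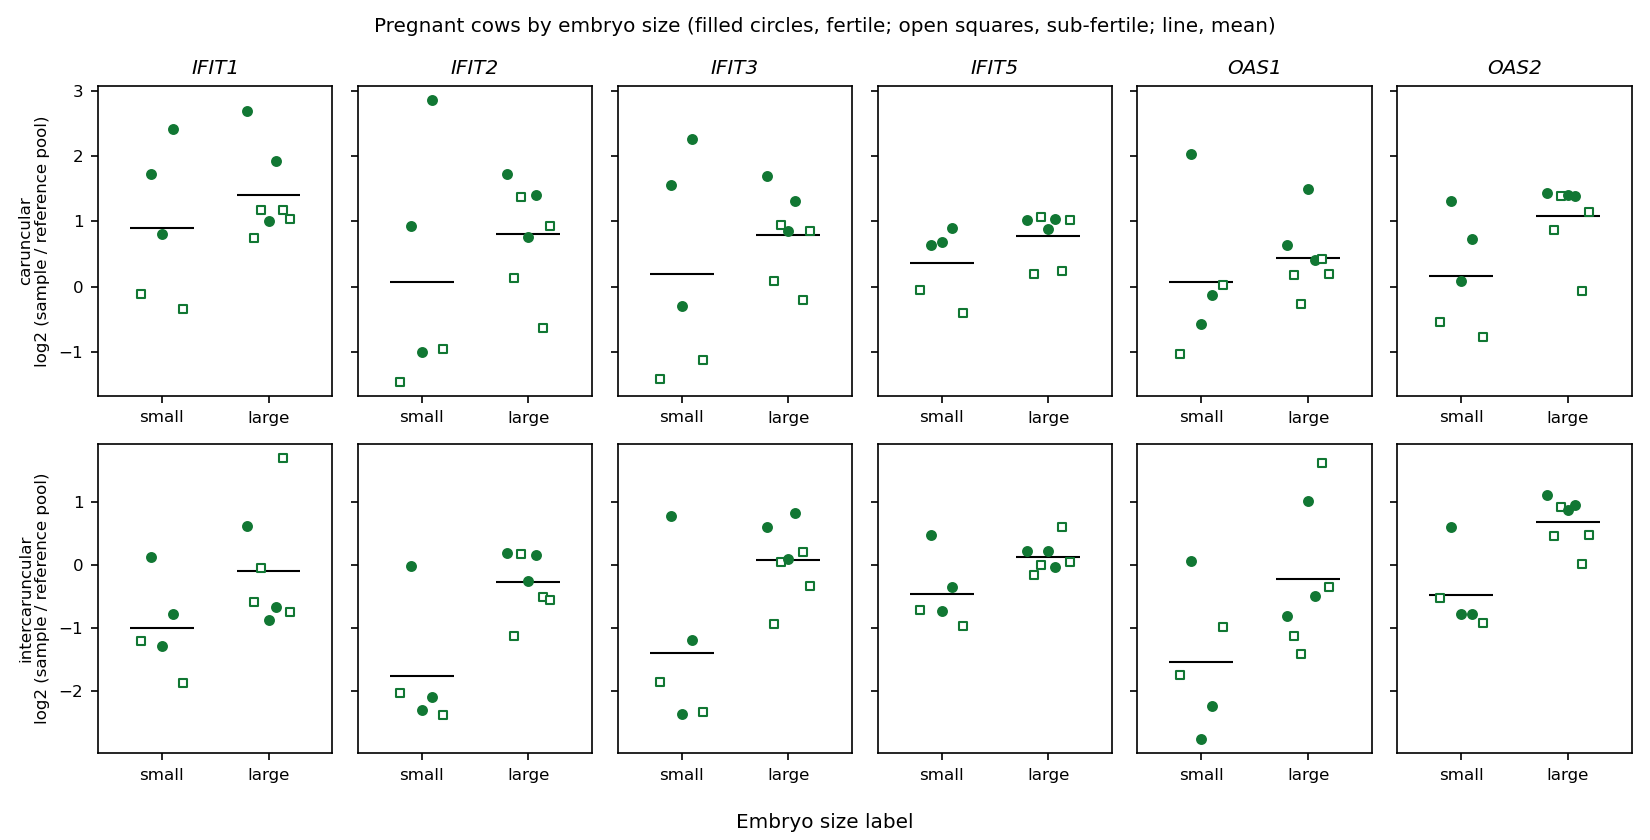
Log2 ratio of sample to reference pool in the 12 pregnant cows by embryo size, 1 point per cow, in caruncular (upper row) and intercaruncular (lower row) endometrium; filled circles are fertile and open squares sub-fertile cows, and lines are means. In intercaruncular tissue 4 of the 5 small-embryo cows lay below all large-embryo cows for IFIT2 and OAS2, and the fifth lay among them.

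No member was called between cows under the fertile and the sub-fertile label. In caruncular tissue 0 of 5 members were called by limma, as were 0% of all probes, and 3 had an unadjusted p under 0.05, against 13.8% of all probes. IFIT1 ran from 0.81 through 1.83 to 2.70 in fertile and from -0.35 through 0.89 to 1.18 in sub-fertile cows, and 4 of 6 fertile cows were above every sub-fertile cow. The difference was 1.15 (SE 0.37, adjusted p = 0.278). IFIT3 differed by 1.38 (SE 0.48, adjusted p = 0.29), IFIT5 by 0.51 (SE 0.23, adjusted p = 0.351), IFIT2 by 1.21 (SE 0.62, adjusted p = 0.4) and OAS2 by 0.72 (SE 0.39, adjusted p = 0.424), each higher in fertile cows. In intercaruncular tissue the differences were -0.01 for IFIT1, 0.35 for IFIT2, 0.66 for IFIT3, 0.16 for IFIT5 and 0.26 for OAS2, and 0 of 5 were called by limma, where 0.0477% of all probes were, with 0 of 5 at an unadjusted p under 0.05 against 13.6% of all probes. For OAS1 the fertile and sub-fertile means were 0.65 and -0.08 in caruncular and -0.87 and -0.67 in intercaruncular tissue. The 1 slide of each tissue that held both labels, with 2 cows of each, had fertile minus sub-fertile differences of 1.20 for IFIT1, 0.71 for IFIT2, 1.08 for IFIT3, 0.46 for IFIT5, -0.23 for OAS1 and 0.11 for OAS2 in caruncular tissue and of -1.30 to -0.05 in intercaruncular tissue, and in no case were both fertile cows above both sub-fertile ones.

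Levels of the members also differed between the tissues of a cow, mainly in pregnancy. In pregnant cows caruncular tissue was the higher in 11 of 12 cows for IFIT1, IFIT2, IFIT3, IFIT5 and OAS1 and in 10 of 12 for OAS2, and in 10 of 12 cows it was the higher for all 6. In the limma fit, which did not pair the tissues of a cow, 4 of 5 were called, where 48.5% of all probes were. The differences were 1.66 for IFIT1 (SE 0.36, adjusted p = 0.00061), 1.40 for IFIT2 (SE 0.46, adjusted p = 0.0137), 1.08 for IFIT3 (SE 0.45, adjusted p = 0.049), 0.72 for IFIT5 (SE 0.19, adjusted p = 0.00355) and 0.50 for OAS2 (SE 0.31, adjusted p = 0.184). With the cow as a block, when 61.5% of all probes were called, OAS2 was called too (adjusted p = 0.0017). IFIT3 lost its call with no filter (adjusted p = 0.0652), with the authors' matrix (0.0502) and with the first array alone of repeated samples (0.0505).

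The exception was cow Pregnant_9790, the pregnant cow whose tissues shared a slide. Its intercaruncular sample was the higher for all 6 members, with caruncular minus intercaruncular differences of -0.52 for IFIT1, -0.14 for IFIT2, -0.41 for IFIT3, -0.37 for IFIT5, -1.21 for OAS1 and -0.06 for OAS2. The other 11 pregnant cows, in which tissue and scan batch cannot be told apart, carry the differences above. Without this cow, the differences were 1.86, 1.54, 1.22 and 0.82 for the IFIT genes in the same order and 0.55 for OAS2, and the same number, 4 of 5, was called, where 50.9% of all probes were.

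In cyclic cows the tissues were closer. Of 5 members tested in the unpaired fit 2 were called, where 33.5% of all probes were, and in opposite directions. IFIT5 was higher in caruncular tissue in 10 of 10 cows, by 0.42 (SE 0.07, adjusted p = 0.00015), and its lowest caruncular value was above every intercaruncular one. OAS2 was higher in intercaruncular tissue in 9 of 10 cows, by a caruncular minus intercaruncular difference of -0.42 (SE 0.11, adjusted p = 0.00561). The cow in which it was not was Non-Pregnant_9786, whose tissues shared a slide and which had 0.05 for OAS2 and 0.27 for IFIT5. IFIT1, IFIT2 and IFIT3 had differences of -0.09, -0.27 and 0.07.

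The effect of pregnancy was larger in caruncular than in intercaruncular tissue for every member tested, by 1.75 for IFIT1 (SE 0.43), 1.68 for IFIT2 (SE 0.55), 1.01 for IFIT3 (SE 0.51), 0.92 for OAS2 (SE 0.36) and 0.30 for IFIT5 (SE 0.22). In the fit that treated all 44 samples as independent, 0 of 5 were called by limma, with adjusted p from 0.183 to 0.873, where 0.0204% of all probes were called, and 3 of 5 had an unadjusted p under 0.05, against 7.37% of all probes. With the cow as a fixed block, which compares the tissues within an animal, 3 of 5 were called, IFIT1 (adjusted p = 0.00347), IFIT2 (0.0361) and OAS2 (0.00347), against 1.02% of all probes, while IFIT3 (0.0726) and IFIT5 (0.329) were not. Without the 2 cows whose tissues shared a slide, IFIT1 alone was called in the fit without the block (1.96, adjusted p = 0.0133), where 0.735% of all probes were called. With the block as well, 4 were called, all but IFIT5, where 4.29% of all probes were called.

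**Figure D4:**
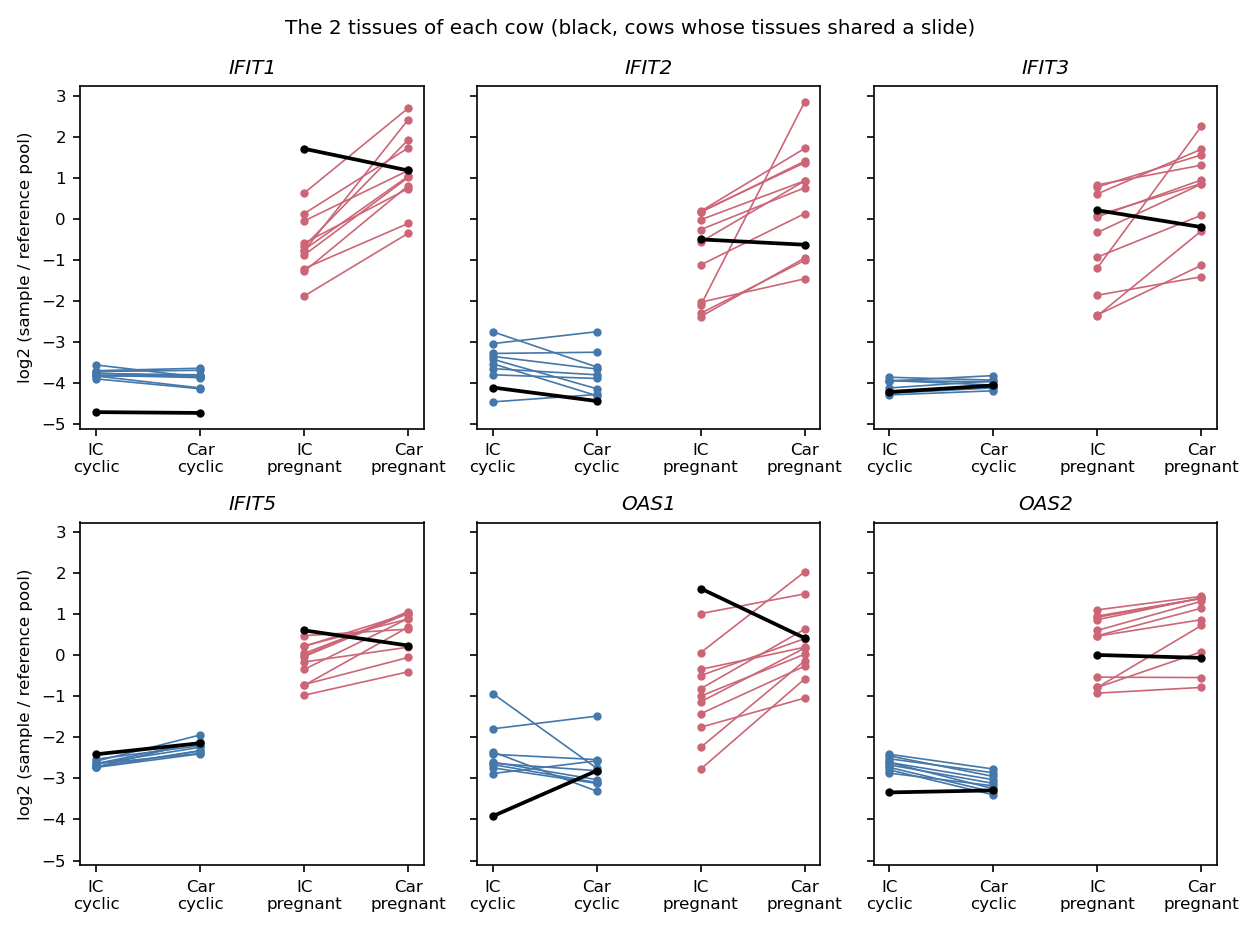
Log2 ratio of sample to reference pool in the intercaruncular (IC) and caruncular (Car) sample of each cow, joined by a line, for the 6 probes in cyclic (blue) and pregnant (red) cows; black lines are the cows whose tissues shared a slide, Non-Pregnant_9786 and Pregnant_9790. Lines rise from intercaruncular to caruncular tissue in 10 or 11 of 12 pregnant cows for each member, and the black pregnant line falls for all 6.

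The levels in the tissues of a cow were correlated for some members, and since the same sets of cows shared a slide in both tissues, the slide and the cow were partly tied. Over the 12 pregnant cows, of 6 relations tested by 2-sided permutation tests with adjustment over the 6, OAS2 gave r = 0.86 (p = 0.00198, adjusted p = 0.0119) and rho = 0.92 (p = 2e-05, adjusted p = 0.00012). By the same tests OAS1 gave r = 0.69 (permutation p = 0.0164, adjusted p = 0.0434) with rho = 0.87 (adjusted p = 0.0015), and IFIT3 gave r = 0.67 (permutation p = 0.0217, adjusted p = 0.0434) with rho = 0.62 (adjusted p = 0.0508). IFIT1, IFIT2 and IFIT5 gave r = 0.53, 0.48 and 0.49 (permutation adjusted p = 0.114, 0.116 and 0.116), with rho = 0.66, 0.60 and 0.30 (adjusted p = 0.049, 0.0508 and 0.337). Leaving out the 2 cows farthest from the caruncular median gave r = 0.80 for OAS2, 0.65 for OAS1, 0.40 for IFIT3, 0.22 for IFIT1, -0.17 for IFIT5 and 0.88 for IFIT2, of which IFIT2 alone had an adjusted permutation p below 0.05 (0.00912). The adjusted permutation p of IFIT3, OAS1 and OAS2 thus rose above 0.05 (0.381, 0.0506 and 0.0506). Leaving out the farthest cows also narrows the range, so whether a relation rested on them cannot be told. For IFIT2 r was higher without its 2 farthest cows, among them cow Pregnant_932. A slide held at most 4 cows, too few for an r of its own. With the mean of each set of cows that shared a slide subtracted in each tissue, which left 11 cows in 3 sets and was added after seeing the data, r was 0.82 for OAS2 (exact permutation within sets, adjusted p = 0.00694), 0.74 for IFIT3, 0.71 for IFIT1, 0.71 for IFIT5, 0.67 for OAS1 and 0.51 for IFIT2, and the 5 relations other than that of OAS2 did not pass (exact permutation adjusted p = 0.0799 to 0.34).

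Over the 10 cyclic cows r was 0.91 for IFIT1, 0.69 for IFIT2, 0.78 for IFIT3 and 0.66 for OAS2 (permutation adjusted p = 0.0311 for each), with rho = 0.70, 0.81, 0.82 and 0.79, and 0.44 and 0.29 for IFIT5 and OAS1. Without the 2 farthest cows none of the 6 had an adjusted permutation p below 0.05, and r for IFIT1 was 0.35 without cows Non-Pregnant_9786 and Non-Pregnant_9813. With the means of the 2 sets of 4 cows that shared a slide subtracted, r was 0.93 for OAS2, 0.69 for IFIT2, 0.62 for IFIT1, 0.19 for IFIT3, 0.08 for OAS1 and -0.05 for IFIT5, and none passed (exact permutation adjusted p = 0.0833 to 0.889).

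Among themselves, the 5 tested members moved together over pregnant cows. As a description, with the 12 cows sharing their arrays between members, the 10 pairs had r between 0.72 and 0.96 (median 0.83) in caruncular and between 0.47 and 0.96 (median 0.84) in intercaruncular tissue. Over the 10 cyclic cows the pairs had a median r of 0.12 and 0.22. OAS1 had r between 0.27 and 0.57 with the other members in caruncular tissue and between 0.49 and 0.76 in intercaruncular tissue, where this overlapped the range of the other pairs, and was most like its neighbour OAS1Z (r = 0.99 in caruncular and 0.88 in intercaruncular tissue). OAS1 was highest in caruncular samples of cows Pregnant_3956 (2.04) and Pregnant_3957, which shared a slide, while IFIT1 was highest in cow Pregnant_1943 and IFIT2 and IFIT3 in cow Pregnant_932. Both OAS1 and OAS1Z were dim.

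Of all other probes with a symbol, the 5 with the highest mean r with the tested members over the 12 pregnant cows and both tissues were those of GTF2B, a general transcription factor (0.89), USP25, a deubiquitinase (0.89), CARF (0.87), FLJ11171 (0.87) and TDRD7, a tudor domain protein (0.87). Each rose with pregnancy, but by less than any member, from 1.30 for USP25 to 1.88 for TDRD7 in caruncular and from 1.06 to 1.33 in intercaruncular tissue.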

How the data were processed

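Spot intensities were extracted by the authors with Agilent Feature Extraction (9.5.3.1, per the file headers), which subtracted background, flagged outliers and balanced the dyes by LOWESS. The deposited log10 ratio of each spot is the Cy5 over the Cy3 signal, and the authors' matrix of log2 values was an alternative. Log10 ratios were taken to log2, spots with outlier flags (0.529%) dropped, spots of a probe averaged, the array median subtracted and repeat arrays averaged. Tests were limited to the 14690 probes whose Cy5 signal reached 80 units and was flagged well above background in 22 or more samples. limma 3.58.1 (lmFit, eBayes) in R 4.3.3 was fitted over all probes, per tissue, or over both tissues where these were compared, with Benjamini-Hochberg adjustment; the call was an adjusted p below 0.05, with a change of at least 1.5-fold for pregnancy. Correlations were tested by 100000 permutations, and with slide means subtracted by exact permutation within slides. The scripts were tested on simulated data. The deviations from the group means correlated between the tissues of the same cow in 22 of 22 cows (r = 0.11 to 0.87, median 0.61, against -0.06 between cows), and the cow numbers in the labels give the pairing. Repeat arrays differed with an SD of 0.10 to 0.15, and the number of arrays limits the precision. Alternatives were the filter, background correction, centring, slide and cow blocks, the label not under test as a covariate and leaving out cows. Members, lists and the rule for named genes (all members, 2-5A genes, up to 3 called genes of other lists, the 5 most alike probes) were chosen with earlier results of these data known. The probes next to those 5 at the same rounded r were named outside that rule. Promoters and proteins were not analysed here. Some genes of the lists are not reported here.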

Additional observations from a re-analysis of the deposited data

Results flagged for a closer look

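Of 60 combinations of a member and a group of 5 to 10 cows examined, 7 had a value set far from the rest relative to the range of the group. For a single combination chance gives about 1 in 20. The combinations are not independent, since pregnant cows entered by embryo size and again by fertility label and the members shared their arrays. The 7 can therefore not be set against that rate. Cow Non-Pregnant_9786 was low for IFIT1 in caruncular (-4.73, next -4.14) and in intercaruncular tissue (-4.71, next -3.90), and for OAS2 in intercaruncular tissue (-3.34, next -2.87). Cow Non-Pregnant_3972 was high for OAS1 in caruncular tissue (-1.48, next -2.54), where the probe was near background. Cow Pregnant_9790 was low for OAS2 among the caruncular samples of cows with a large embryo (-0.06, next 0.87). Cow Pregnant_3956 was high among the intercaruncular samples of cows with a small embryo for IFIT2 (-0.02, next -2.03) and OAS2 (0.61, next -0.53). Cows Non-Pregnant_9786 and Pregnant_9790 are those whose tissues shared a slide, and the part of the slide in their values was not tested.

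With the cow as a fixed block, limma called the interaction term for IFIT1 (1.75, adjusted p = 0.00347), IFIT2 (1.68, adjusted p = 0.0361) and OAS2 (0.92, adjusted p = 0.00347). For each of these the effect of pregnancy was larger in caruncular tissue, and 1.02% of all probes were called. In the main fit, without the block, 0 of 5 members were called, where 0.0204% of all probes were. The IFIT2 value rests on cyclic levels close to the background, with 80 units in 3 of 20 cyclic samples.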

How the results depend on the processing

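Under every alternative that tested all 5 members, they were called higher in pregnant cows in both tissues. The exception was slide as a fixed block, under which not all were called and in which cow Non-Pregnant_3972 alone stood for the cyclic cows. IFIT2 had passed the filter through the pregnant cows, so its call adds nothing. No fit of this comparison left out a cow. The count for embryo size in intercaruncular tissue, 1, was 0 with no filter (1.49% of all probes called), 2 with the fertility label as a covariate (4.79%), 3 with all 22 cows in the fit (3.51%), 2 with slide as a random block (5.96%), and 0 to 4 on leaving out 1 cow (0.231 to 12.8%). The count for the difference of the pregnancy effect between tissues, 0, was 3 with the replicate block of the cow, whether fixed or random, 1 without the 2 cows whose tissues shared a slide, and 4 with both changes. Leaving out the cows whose tissues shared a slide, the fixed slide block for size and fertility and the subtraction of slide means were chosen after seeing the data. The replicate block changed no other call but that of OAS2 between the tissues of pregnant cows (adjusted p = 0.0017). Correlations between tissues over pregnant cows that passed, 3 of 6, were 1 with normexp, 1 without the 2 farthest cows and 1 with slide means subtracted, and over cyclic cows, 4 of 6, they were 0 without the 2 farthest and 0 with slide means subtracted. The values that changed sign were IFIT1 by fertility in intercaruncular tissue with size as a covariate (0.15), IFIT2 there with slide as a random block (-0.04), IFIT2, IFIT3, IFIT5 and OAS2 there with slide as a fixed block (-1.10, -0.63, -0.05 and -0.79), the cyclic correlation of IFIT5 with slide means subtracted (-0.05) and the pregnant correlation of IFIT5 without 2 cows (-0.17). The OAS1 difference in caruncular tissue was 1.54 with normexp. The cause was not tested. Signals near background limit OAS1, and IFIT2 in cyclic cows.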
